A study of Mus musculus with 66 samples.

Results

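The regions described here were stretches of mouse prefrontal cortex chromatin that carried H3K9me3 inside protein-coding genes, away from the gene starts. H3K9me3 is trimethylation of lysine 9 on histone H3. On chromosomes 1 to 19, windows of 200 bp that lay under a listed island (an enriched stretch called by the authors) in at least 18 of 22 H3K9me3 libraries were joined into runs. A run was kept as a gene-body region when it was under 20 kb, lay wholly inside a protein-coding gene of the GENCODE annotation of GRCm38, and was more than 1 kb from every protein-coding gene start. This gave 6919 gene-body regions of 39329 runs. Of the other runs, 32119 were intergenic, 204 lay at gene starts, 60 crossed a gene edge and 27 were 20 kb or longer. The regions were chosen by the presence of islands in the H3K9me3 lists, so their H3K9me3 level is given as a description, without a test.

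The mice were adolescent DBA/2J animals, an inbred strain. By gavage they were given either water or ethanol, dosed at 4 g/kg as a 25% solution (w/v), on intermittent days between postnatal days 29 and 42. Prefrontal cortex was collected when 24 h had passed since the final gavage. Each library came from 3 mice of the same sex and treatment whose tissue was pooled, with 8 technical precipitations per antibody combined, so the number of pools is the number of replicates and no value belongs to a single animal. Males and females each gave 6 ethanol and 5 water pools. In tissue of mixed cell types, a region marked strongly in few cells and a region marked weakly in many cells cannot be told apart.

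H3K9me3 is the mark of heterochromatin, chromatin that is kept compact and transcriptionally silent. It is written by methyltransferases such as SETDB1 and SUV39H1, read by HP1 proteins and removed by KDM4 demethylases. In mammalian cells its best known targets are retrotransposons, to which KRAB zinc-finger proteins bring SETDB1 through TRIM28, and the 3′ exons of the zinc-finger genes themselves. Inside genes it therefore often lies on repeat sequence in introns, next to H3K36me3, the mark laid down over transcribed gene bodies.

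The sequences that the gene-body regions shared came first, because they set what most of the regions were. The regions of at least 1 kb, 5415 in all, were compared with blastn, and 2 regions were linked when they aligned at 80% identity or more over at least 50% of the shorter. A single family held 4461 of the 5415 regions (82.4%), in 1725 genes. The next families held 54, 22 and 21 regions. Families were built in turn, each from 1 region and the still unassigned regions linked to it. In this way 452 regions were left alone, and their links to regions already assigned were not counted. The large family was built from a region in an intron of Zfp442, a zinc-finger gene, at chr2:150423801-150433200 (GRCm38). This region had the most links among the longest regions then unassigned. Its most shared 300 bases aligned with 3331 regions on average. The middle 150 bases of that stretch are printed here (chr2:150425838-150425987, plus strand), followed by the same stretch in regions of Erc2, a scaffold of the presynaptic active zone (chr14:28186993-28187142, minus strand), Gabrb1, a GABA-A receptor subunit (chr5:71833855-71834004, plus strand), Epha6, an ephrin receptor (chr16:59702707-59702856, minus strand), Grm7, a metabotropic glutamate receptor (chr6:111464642-111464791, plus strand), Spag16, a sperm axoneme gene (chr1:69972014-69972163, minus strand), and Kdm4d, a demethylase of H3K9 (chr9:14475105-14475254, minus strand). Capitals mark bases that differ from the Zfp442 copy. All sequences were read from the GRCm38 reference, which is C57BL/6J and not DBA/2J.
Zfp442: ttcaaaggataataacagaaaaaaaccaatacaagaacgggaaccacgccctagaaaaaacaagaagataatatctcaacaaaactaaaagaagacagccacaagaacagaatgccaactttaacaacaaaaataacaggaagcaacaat
Erc2: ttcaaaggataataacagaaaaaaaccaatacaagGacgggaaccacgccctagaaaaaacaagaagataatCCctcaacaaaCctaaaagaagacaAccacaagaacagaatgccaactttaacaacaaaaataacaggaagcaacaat
Gabrb1: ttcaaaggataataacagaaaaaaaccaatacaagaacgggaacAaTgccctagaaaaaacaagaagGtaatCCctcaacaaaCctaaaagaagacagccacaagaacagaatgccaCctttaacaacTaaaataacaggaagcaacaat
Epha6: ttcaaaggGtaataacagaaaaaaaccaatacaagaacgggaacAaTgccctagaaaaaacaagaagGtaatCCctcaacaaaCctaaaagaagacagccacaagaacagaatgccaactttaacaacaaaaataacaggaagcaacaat
Grm7: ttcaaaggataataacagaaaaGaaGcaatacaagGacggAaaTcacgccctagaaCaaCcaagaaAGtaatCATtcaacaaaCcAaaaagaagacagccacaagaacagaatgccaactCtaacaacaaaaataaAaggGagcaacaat
Spag16: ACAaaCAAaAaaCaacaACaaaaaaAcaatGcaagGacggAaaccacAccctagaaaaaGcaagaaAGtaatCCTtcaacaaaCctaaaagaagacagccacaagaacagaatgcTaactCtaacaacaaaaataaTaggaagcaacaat
Kdm4d: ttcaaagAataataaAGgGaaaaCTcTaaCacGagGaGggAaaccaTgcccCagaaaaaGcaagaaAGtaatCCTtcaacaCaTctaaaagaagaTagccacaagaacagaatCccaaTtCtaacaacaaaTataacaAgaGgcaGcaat
These genes include several of the synapse, a sperm gene and a demethylase. Only copies that matched the Zfp442 copy at 120 or more of the 150 bases could be printed, so a close match was set by this choice. The copy in Erc2 matched the Zfp442 copy at 145 of 150 bases, those in Epha6, Gabrb1, Grm7 and Spag16 at 143, 142, 133 and 125, and that in Kdm4d at 120.

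The longest open reading frame of the Zfp442 region was 1116 bases, on the printed strand but outside the printed stretch, against 534 bases on the other strand. A frame of at least 900 bases was present in 1523 regions of the family, and in 99.9% of them it lay on the strand that aligned with the frame of Zfp442. The family was therefore given the direction of this frame. Relative to the host gene, 2957 regions of the family ran on the opposite strand (66.3%) and 1504 on the same strand. No repeat annotation was used, so the family is not named here. H3K9me3 over input was nearly equal in both orientations, with a median log2 of 0.51 in the opposite and 0.52 in the same direction.

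The Zfp442 sequence was then searched for in all gene bodies to see which of its copies had become gene-body regions. A copy was a stretch with at least 1 kb aligned at 80% identity or more, wholly inside a gene and over 1 kb from gene starts. Of 9909 such copies, 2908 (29.3%) had at least 50% of their length in a gene-body region and 5505 touched none. Long copies were inside regions more often. The share was 7.49% of the 4392 copies with 1 to under 2 kb aligned, 26.8% with 2 to under 4 kb, 58.6% of the 2867 copies with 4 to under 6 kb, and 58.3% above that. By identity to Zfp442 the share was 18.7% at 80 to under 85%, 29.9% at 85 to under 90% and 35.3% at 90 to under 95%. Of the 99 copies at 95% or more, 2 were in a region (2.02%). The authors kept only reads with a unique position, and the part of this in the low share of the most alike copies was not tested. The opposite orientation was found in 64.4% of the copies that touched no region and in 66.6% of those inside regions. The family was not particular to genes either: the Zfp442 sequence aligned with 81.4% of the 25852 intergenic runs of at least 1 kb and with 29.3% of the 167 runs at gene starts of that length.

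**Figure D1:**
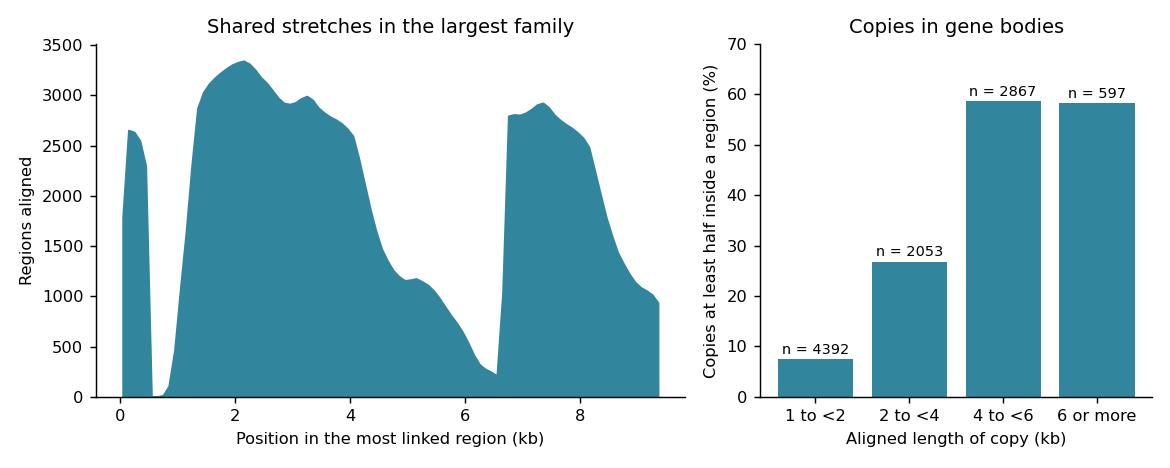
Left, number of gene-body regions aligned at each position of the most linked of the longest regions, in Zfp442 (x axis, kb). The region holds the shared sequence in several pieces, and up to 3350 regions align at its highest point. Right, share of the copies of this sequence in gene bodies with at least 50% of their length in a gene-body region, by aligned length of the copy; it rises from 7.49% to 58.6%.

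The regions as a whole were repeat sequence. The median region was 1800 bp long (quartiles 1000 and 3200) and 99.7% of it was soft-masked, that is, written in lower case as repeat in the reference. Of all gene-body sequence 27.3% was masked, and of gene-body blocks of 1800 bp only 3.17% were masked over at least 90% of their length, against 5542 of the 6919 regions (80.1%). The median GC content was 38.0%, against 42.5% in the blocks. In total the regions covered 15.1 Mb, or 1.57% of gene-body sequence, at 7.16 regions per Mb.

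The regions of the families below the large one did not align with the Zfp442 region at 80% identity over at least 50% of the shorter. Whether they hold other parts or more distant copies of the same sequence was not tested. A shared stretch of each of the next 3 is printed. The second family (54 regions) was led by a region in Nlrp4e, a NOD-like receptor gene (chr7:23349896-23350045, plus strand), and the third (22 regions) by one in Skint11 of the butyrophilin-like Skint genes (chr4:114170018-114170167, plus strand). The fourth (21 regions in 12 genes) was led by one in the zinc-finger gene Zfp600 (chr4:146163777-146163926, plus strand). Capitals mark the bases aligned in the most regions, which were 43, 22 and 9 regions of these families.
Nlrp4e: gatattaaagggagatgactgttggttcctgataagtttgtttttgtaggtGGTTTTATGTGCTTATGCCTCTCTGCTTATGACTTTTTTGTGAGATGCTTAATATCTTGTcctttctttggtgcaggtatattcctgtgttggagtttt
Skint11: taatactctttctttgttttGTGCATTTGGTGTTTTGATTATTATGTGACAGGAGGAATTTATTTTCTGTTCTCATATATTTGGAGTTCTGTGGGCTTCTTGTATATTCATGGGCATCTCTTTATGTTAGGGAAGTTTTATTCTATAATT
Zfp600: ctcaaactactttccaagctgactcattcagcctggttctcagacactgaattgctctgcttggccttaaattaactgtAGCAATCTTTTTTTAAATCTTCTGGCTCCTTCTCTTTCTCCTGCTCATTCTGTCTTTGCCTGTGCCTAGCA
Regions of the fourth family had the highest level among the 4 families, with a median log2 fold over input of 1.13 (quartiles 1.06 and 1.18), against 0.53 in the second, 0.60 in the third and 0.51 in the large family. The Zfp600 region measured 1.14 ± 0.13 on the log2 scale (SD, n = 22 libraries), the Skint11 region 1.07 ± 0.23, the Nlrp4e region 1.03 ± 0.24 and the Zfp442 region 0.75 ± 0.21.

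The H3K9me3 level was taken as the log2 of ChIP reads over input reads with 1 read added to each, scaled per library by the constant in the authors' fold. Averaged over libraries, the median region stood at 0.51 (quartiles 0.38 and 0.63), which is a modest enrichment, and the intergenic runs stood at 0.55. Regions with little repeat sequence stood higher. The median was 0.87 in the 429 regions masked under 50%, 0.66 in the 948 masked from 50 to under 90%, and 0.50 in the 5542 masked at 90% or more. Exonic regions stood at 0.84 and intronic regions at 0.51. Only 275 regions touched an exon, and 132 of these touched coding sequence. A median of 17 libraries per region had an island with a false discovery rate (FDR) of at most 0.01, 529 regions had one in every library, and 94 had none in any. Those 94 regions were short (median 600 bp) and had more reads in input than elsewhere, 70.6 per kb against 22.8 per kb over all regions. Their median log2 fold was −0.40, so they were listed by the caller without enrichment over input.

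**Figure D2:**
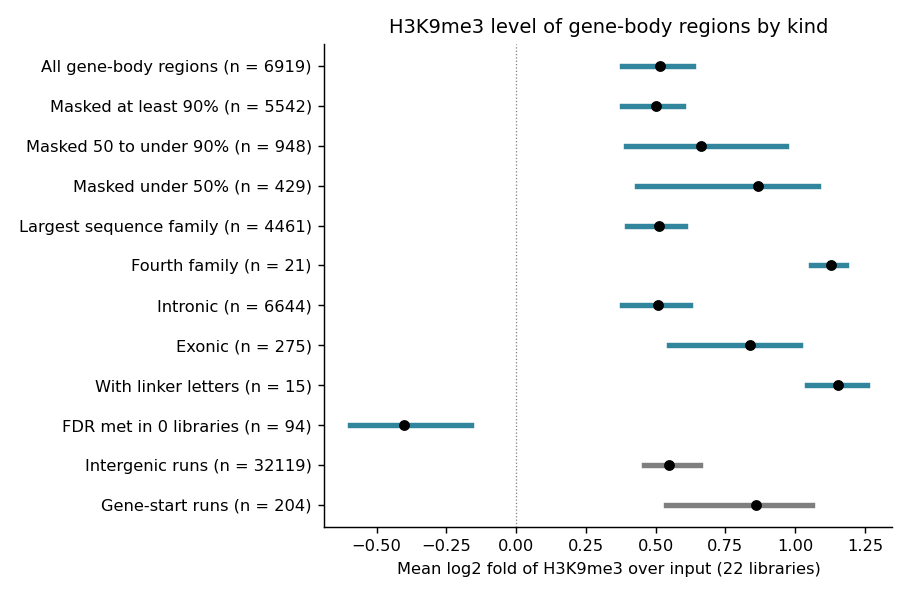
Mean log2 fold of H3K9me3 over input over the libraries with an island (x axis) for kinds of gene-body regions (blue) and for intergenic and gene-start runs (grey). Points are medians over regions and bars run between the quartiles; regions with little masked sequence, exonic regions and those with zinc-finger linker letters lie to the right of the median of all regions, and the 94 regions with no island at the FDR lie below 0.

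The 5 regions of highest fold over input lay in 4 genes. The region of highest mean log2 fold, 1.45 ± 0.40 (SD, 21 libraries with an island), was an intronic region of Zfp987 at chr4:146107801-146108800. The next lay in Obox1, an oocyte homeobox gene (1.43 ± 0.39, 19 libraries), Cyp3a59, a cytochrome P450 (1.38 ± 0.34, 19 libraries), the zinc-finger gene Zfp988 (1.37 ± 0.43, 22 libraries) and again Zfp987 (1.35 ± 0.25, 22 libraries). The 120 bases at the centre of the leading Zfp987 region are printed with CpG in capitals (chr4:146108241-146108360, plus strand). They hold 1 CpG.
Zfp987: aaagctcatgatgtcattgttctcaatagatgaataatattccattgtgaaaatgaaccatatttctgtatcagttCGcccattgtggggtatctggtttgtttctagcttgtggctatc
The median region had 0.162 of the CpG count given by its base content, against 0.181 in gene-body blocks of 1800 bp and 0.182 in the large family. In all, 400 regions in 159 genes had a mean fold of 2 or more, and 80 of them were exonic. These 400 regions had few input reads, with a median of 15.3 per kb against 22.8 over all regions, and a similar number of ChIP reads, 37.6 against 36.5 per kb.

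Regions with the letters of zinc-finger linkers were few and stood high. C2H2 zinc fingers follow each other through a short conserved linker, and the letters ACNGGNGANAANCCN, read from the codons of that linker, were searched on both strands. They occurred in 15 regions (0.217%), against 0.383% of gene-body blocks of 1800 bp. The 15 regions had a median log2 fold of 1.15 (quartiles 1.04 and 1.26), against 0.51 in the regions without them, and 13 of the 15 overlapped coding sequence. The region with most linkers lay in Gm13212 and held 20. A stretch of it with 4 linkers in capitals is printed (chr4:145622765-145623064, plus strand).
Gm13212: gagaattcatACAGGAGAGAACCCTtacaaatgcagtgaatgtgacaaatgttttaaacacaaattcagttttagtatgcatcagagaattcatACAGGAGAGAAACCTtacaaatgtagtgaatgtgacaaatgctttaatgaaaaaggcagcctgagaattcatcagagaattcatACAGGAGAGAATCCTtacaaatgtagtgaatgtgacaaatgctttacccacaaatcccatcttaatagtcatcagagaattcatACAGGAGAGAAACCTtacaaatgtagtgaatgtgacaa
The fifth most enriched region, at chr4:146124001-146125800, overlapped 1644 coding bases of Zfp987 and held 11 linkers.

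The regions with the most exonic bases were not all alike. In Vmn2r53 and Vmn2r112, receptors of the vomeronasal organ, regions of 6400 and 5200 bp were exonic throughout and outside the coding sequence. Their log2 folds were 0.93 ± 0.18 and 1.02 ± 0.18 (SD, n = 22). The region of Muc4, a mucin with a repetitive exon, covered 5796 coding bases and was only 2.66% masked, but its log2 fold was 0.16 ± 0.16, with the 22 libraries between −0.18 and 0.47.

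Genes differed widely in how many regions they held. Of 20807 protein-coding genes, 2292 (11.02%) held at least 1 region, 1091 held exactly 1 and 141 held 10 or more. Outside chromosome 18, whose regions were counted but not named, the most were in Sntg1, a syntrophin of neurons (43 regions in 938404 bp), C130026I21Rik (39 in 277877 bp), Fhit, the gene of a common fragile site (35 in 1611944 bp), and Malrd1, Nkain2 and Sugct (33 each). Long genes held regions more often. Regions were present in 90.8% of the 218 genes of 500 kb or more and in 1.95% of the 11129 genes under 20 kb. Per Mb of gene the long genes held 10.1 regions and the short genes 2.99. Within the host gene, 16.1% of the regions lay in the first 20% of its length and 15.8% in the last, against 22.4 to 23.2% in each of the 3 bins between.

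The lists of zinc-finger and of receptor genes had a higher median level than the neuronal lists. Zinc-finger genes held 260 regions in 73 of 457 genes, or 17.7 per Mb, with a median log2 fold of 0.87. Olfactory and vomeronasal receptors held 352 regions in 163 of 1455 genes, or 27.6 per Mb, with a median of 0.83 and 89 exonic regions. In the neuronal lists the density lay between 5.83 and 9.35 per Mb of gene, beside 7.12 for all genes when gene lengths are summed, and 1 region, in a potassium channel gene, was exonic. Adhesion genes of the neurexin, contactin and cadherin groups held 220 regions in 27 of 50 genes (9.35 per Mb, median log2 fold 0.45). Glutamate receptors held 76 in 13 of 25 genes (8.35 per Mb, 0.46), potassium channel genes 67 in 22 of 92 (6.45 per Mb, 0.52), GABA-A and glycine receptors 20 in 5 of 18 (7.03 per Mb, 0.50), and ephrins and their receptors 18 in 3 of 21 (5.83 per Mb, 0.46). None of the 15 astrocyte and oligodendrocyte genes found on these chromosomes held a region. Of 14 genes for writers, readers and erasers of H3K9 methylation, only Kdm4d held a region, 4800 bp in an intron with a log2 fold of 0.52 ± 0.22.

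The highest region of each neuronal list lay in Cntnap3, a cell adhesion gene of the neurexin superfamily (1.27 ± 0.33, 21 libraries), Grm7 (0.81 ± 0.33, 22), Kcnip4, a modulator of potassium channels (0.77 ± 0.30, 20), Epha6 (0.70 ± 0.23, 22) and Gabrg3, a GABA-A receptor subunit (0.69 ± 0.19, 20). Among the receptor clusters it was an intronic region of Vmn2r53 at 1.301 ± 0.44 (19 libraries). Those of Grm7, Kcnip4, Epha6 and Gabrg3 belonged to the large sequence family, and that of Cntnap3 did not.

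At the library threshold of the rule, values just inside and just outside were close. The 846 regions that never exceeded 18 libraries had a median log2 fold of 0.48, and the 1169 gene-body stretches that reached only 16 or 17 libraries, and so fell outside, had 0.47. At the other limits single regions differed. The longest region was 19200 bp (Gm20388, log2 fold −0.37) and the shortest gene-body run left out for length was 26200 bp (Zfp981, 1.12). The region nearest to a gene start was 1011 bp from it (Pate2, 0.71) and the run excluded at the largest distance was 1000 bp away (Gm3404, 0.33).

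The libraries were of modest depth for this number of regions. Reads in listed islands ranged from 5734011 to 14235444 per H3K9me3 library, and reads within gene-body regions from 466061 to 1.02e+06. The median region held 63 to 114 ChIP reads, depending on the library, beside 42.9 to 53.6 input reads. Reads were apportioned from islands by overlap. Between any 2 of the 22 libraries the chi-square per region was at least 1.73, above the counting noise of independent reads. The tissue was looked for through H3K36me3, which usually covers transcribed genes. Islands with an FDR of at most 0.01 covered at most 10.2% of any cortex gene reported here (Camk2a, the highest library; the others were Snap25, Syt1, Grin2b, Map2, Gad1, Slc1a2 and Mbp), with medians over libraries of 0.561% for Map2 and 0 for the rest. Of 6 genes of other tissues, the highest was Myh6 at 7.94%, with medians of 0. These islands barely covered cortex genes, so they gave no check of the tissue label. They also overlapped the H3K9me3 runs in every pool. Every H3K36me3 value given here is therefore a value of the libraries labelled H3K36me3, and whether it reflects that mark over transcribed genes was not tested.

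Whether ethanol changed the part of the signal that fell in gene-body regions was tested per library. In males, 13.8% ± 0.289 of the reads of all runs fell in gene-body regions with ethanol (SD, n = 6; lowest 13.3, median 13.9, highest 14.04) and 13.8% ± 0.114 with water (n = 5). In females the share was 13.95% ± 0.210 with ethanol (n = 6) and 13.85% ± 0.162 with water (n = 5). The groups overlapped in both sexes, with differences of 0.0376 and 0.0995 percentage points (exact permutation test, two-sided, p = 0.805 and 0.424; adjusted over 9 tests, 0.906 and 0.795). Single pools moved these small values: without 1 pool the difference lay between −0.00877 and 0.148 in males, the highest without ethanol replicate 1, and between 0.0252 and 0.149 in females (lowest exact permutation p 0.0794 and 0.254). With islands at an FDR of at most 0.01 the differences were 0.433 and 0.585 (exact permutation p = 0.294 and 0.199). The median log2 fold over input was 0.54 ± 0.08 with ethanol and 0.50 ± 0.08 with water in males, and 0.53 ± 0.05 and 0.46 ± 0.18 in females (exact permutation p = 0.442 and 0.615). The wide spread of the female water pools came from 1 pool at 0.15, where the other pools lay between 0.48 and 0.59. Without that pool the female difference was −0.01. Females and males did not differ past the threshold in either measure (permutation p = 0.222 and 0.645).

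**Figure D3:**
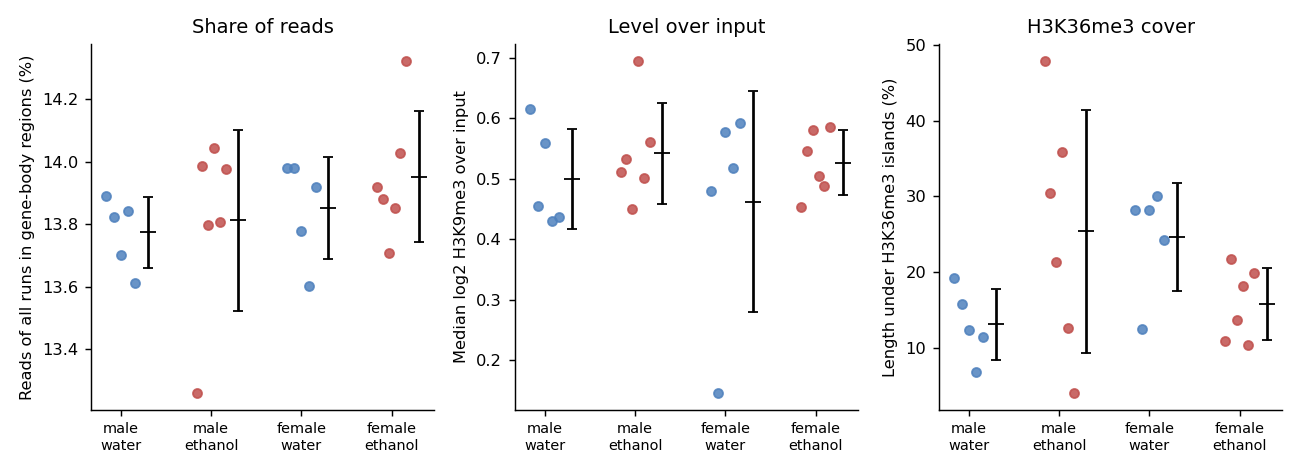
Values per pool (points; red ethanol, blue water) for the share of reads of all runs in gene-body regions, the median log2 fold of H3K9me3 over input, and the share of region length under H3K36me3 islands. Bars give mean ± SD; axes do not start at 0, and groups overlap in every panel.

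Islands of the libraries labelled H3K36me3 were looked for in the same regions of the same pools. These islands (FDR of at most 0.01) covered 19.8% ± 10.5 of the length of the gene-body regions (SD, n = 22, from 4.01 to 47.9%) and 1.57% ± 0.681 of all gene-body sequence. The share was higher in the regions in 22 of 22 pools, by 18.2 percentage points (sign-flip permutation test over pools, p = 1e-05, the smallest that 100000 resamples give). With all listed islands the shares were 61.5% and 2.97%. Intergenic runs were covered to 15.7% ± 9.52, and a median of 40.6% of the H3K36me3 island length of a library lay in the runs. At least 50% of a region was covered in 1 or more libraries for 5850 of the 6919 regions, in 11 or more for 571, and in all 22 for 3. The 3 were a pair in Hjurp, a chaperone of the centromeric histone, and 1 in Sfi1, a centrin-binding gene. Across the 4544 regions with a listed H3K36me3 island in at least 11 libraries, the median log2 fold of H3K36me3 over input was 0.26, and it went with that of H3K9me3 (Pearson r = 0.50, Spearman rho = 0.60 across regions, which are not independent). Both marks were divided by the same input library: all 21272 islands with identical ends in both lists of a pool had identical input reads. The part of the shared input in this relation, and in the cover of the regions by H3K36me3 islands, was not tested.

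**Figure D4:**
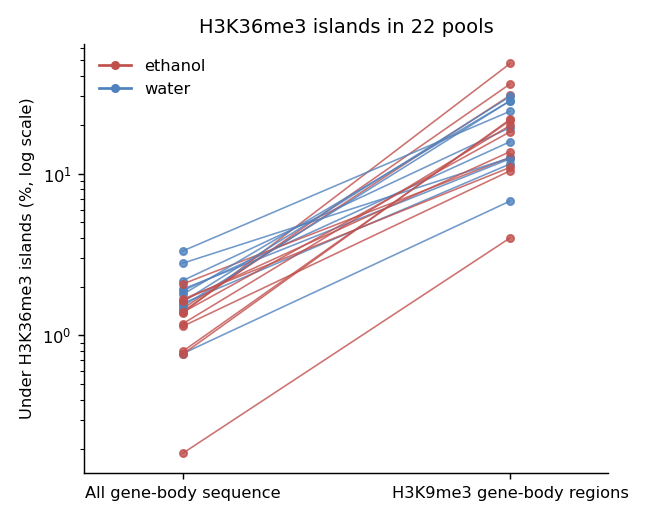
Share of sequence under H3K36me3 islands with an FDR of at most 0.01 (y axis, log scale) in all gene-body sequence and in the H3K9me3 gene-body regions; each line is 1 of 22 pools (red ethanol, blue water), and all 22 lines rise from left to right.

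Cover of the regions by H3K36me3 was then compared between treatments. In males it was 25.4% ± 16 with ethanol (n = 6; lowest 4.01, median 25.9, highest 47.9) and 13.1% ± 4.70 with water (n = 5; 6.77, 11.5, 12.4, 15.8 and 19.3). The male groups overlapped (exact permutation p = 0.143, adjusted 0.643). In females it was 15.8% ± 4.77 with ethanol (n = 6; lowest 10.4, median 15.9, highest 21.7) and 24.6% ± 7.09 with water (n = 5; 12.5, 24.3, 28.1, 28.2 and 30.0). Of the female water pools 4 lay above every ethanol pool and 1 lay among them (exact permutation p = 0.0433, adjusted over 9 tests 0.390). The means thus differed in opposite directions in the sexes, and the difference of the effects, −21.1 percentage points, had an unadjusted p = 0.0146 in a permutation test that permuted treatment within each sex. With all listed islands the male and female differences were 7.60 and −2.15 percentage points (exact permutation p = 0.152 and 0.680), and the difference of the effects was not tested with these islands or without single pools. The permutation takes ethanol to have no effect in either sex, so it is not a test of equal effects alone. The whole H3K36me3 lists moved the same way, with 31.6 Mb of islands in female ethanol and 45.3 Mb in female water pools, and 39.7 and 31.3 Mb in males. The part of the whole lists in the result was not tested. Cover of all gene-body sequence did not range higher with ethanol in males, at 0.187 to 2.08% with ethanol and 0.771 to 2.18% with water. In females it was 0.764 to 1.67% with ethanol and 1.51 to 3.32% with water.

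Region by region, no gene-body region passed the test for ethanol after adjustment over all runs. The fits used edgeR's quasi-likelihood test on all runs with an island in every library compared. In males 4835 of the 6919 regions could be tested and 153 had an unadjusted p of at most 0.05 (70 higher and 83 lower with ethanol), against 3.21% of all 28345 runs tested (1.64% higher and 1.57% lower), and the share among gene-body regions was 3.16%. In females it was 158 of 3984 (80 higher, 78 lower), or 3.97%, against 4.07% of all runs (2.16 and 1.9%). In both sexes together it was 140 of 3638 (50 higher, 90 lower), or 3.85%, against 4.05% (2.08 and 1.97%). None passed an adjusted p of 0.05 by edgeR, by DESeq2 or by limma on reads over input, whereas 127 of 4869, 108 of 3990 and 141 of 3638 had an unadjusted DESeq2 p of at most 0.05, beside 744 of 28556, 660 of 23291 and 910 of 21398 among all runs. These shares lay near the background. Without TMM scaling 93 of 152 were higher with ethanol in males and 68 of 130 in both sexes together, and so were 605 of 920 and 597 of 887 among all runs. Over input 108 of 218 were higher in both sexes, beside 643 of 1204 among all runs. The split by direction thus moved with the scaling for all runs as well. In both sexes together a smaller share of the called gene-body regions than of all called runs was higher with ethanol under each of these scalings, and this difference was not tested. Most estimates were small: in males 90% of the regions lay between −0.20 and 0.19 on the log2 scale, with a median SE of 0.11, and in females between −0.23 and 0.24, with a median SE of 0.12. Of 3638 regions tested in both sexes, 124 were at or under 0.05 in males and 146 in females. Both lists held 8 regions, which is 6.45% of the 124 and 5.48% of the 146, beside the 4.07% and 3.21% of all runs at that threshold in females and males, and 3 of the 8 had the same direction.

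By gene list the counts were small. Beside the 3.21% of all runs in males and 4.07% in females, among regions of glutamate receptor genes 5 of 57 tested in males and 2 of 42 in females had an unadjusted p of at most 0.05. The counts were 2 of 154 and 2 of 126 for adhesion genes, 1 of 44 and 0 of 39 for potassium channel genes, 2 of 11 and 2 of 14 for GABA-A and glycine receptors, and 1 of 11 and 0 of 12 for ephrins and their receptors. For zinc-finger genes they were 4 of 190 and 8 of 153, and for olfactory and vomeronasal receptors 9 of 245 and 11 of 174. The median log2 change of these lists lay between −0.02 and 0.04 in males and between −0.01 and 0.07 in females, beside −0.01 and 0.00 over all regions.

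The regions of smallest p in each comparison outside chromosome 18 are given next. They were ranked by p and not by size of change. The lowest and highest log2 estimates over all regions tested were −0.82 and 0.67 for males, and −0.81 and 0.71 for females. The male estimate of 0.67 was that of the Iqcm region, named below for both sexes together. Levels here are CPM, the reads of a region relative to all reads of the library in the runs tested, after TMM scaling. In males the first lay in an intron of Itgad, an integrin of leukocytes, at chr7:128187601-128188600. It measured 15.2 ± 1.57 CPM with ethanol (n = 6, from 13.6 to 17.1) and 20.1 ± 1.53 with water (n = 5, from 18.6 to 22.5), so the groups did not overlap (log2 change −0.40, SE 0.10, edgeR adjusted p = 0.9999). Its ChIP signal was below input, with a mean log2 fold of −0.36 over 22 libraries, and it had 89.6 input reads per kb. Taken over input (limma) the change was −0.12, no longer past the unadjusted threshold. The regions in Hjurp (8.17 ± 1.21 against 11.9 ± 2.56 CPM) and in Elavl3, a neuronal RNA-binding protein (9.58 ± 1.44 against 13.2 ± 1.67 CPM), had log2 changes of −0.56 and −0.46, with overlapping groups. The Hjurp region was exonic, outside coding sequence. Over input (limma) their changes were −0.50 and −0.42, still past the unadjusted threshold. Their mean log2 folds over input were 0.30 and 0.01.

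In females the 3 regions of smallest p all had higher means with ethanol. The region in Erc2 measured 33.8 ± 2.03 CPM with ethanol (n = 6, from 31.0 to 37.0) and 26.8 ± 3.56 with water (n = 5, from 23.4 to 31.7), with groups that overlapped slightly (log2 change 0.33, SE 0.10, edgeR adjusted p = 0.967). The region in Catsperb, a subunit of the sperm calcium channel, measured 18.8 ± 1.45 CPM with ethanol (from 16.8 to 21.2) and 14.9 ± 0.657 with water (from 14.2 to 15.8). Its groups did not overlap (log2 change 0.34, SE 0.10, edgeR adjusted p = 0.967). The region in Lrrc69 measured 42.5 ± 1.66 against 33.3 ± 6.56 CPM. Over input (limma) the changes of the Erc2 and Lrrc69 regions were 0.26 and 0.19, neither past the unadjusted threshold, and that of the Catsperb region was 0.36, past it. The log2 folds over input of the 3 regions were 0.57, 0.75 and 0.40, beside the median of 0.51.

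With both sexes in 1 fit the first region was a 600 bp stretch in Iqcm, at 17.85 ± 4.83 CPM with ethanol (n = 12, from 8.31 to 24.6, median 18.6) and 11.9 ± 3.73 with water (n = 10, from 6.87 to 18.6, median 12.6). The log2 change was 0.58 (SE 0.16, edgeR adjusted p = 0.9994), but over input (limma) it was 0.11 and not past the unadjusted threshold. Part of it and of the Itgad region are printed (chr8:75700241-75700360 and chr7:128188041-128188160, both plus strand). Both printed stretches consist of short units repeated in tandem, and the rest of the 2 regions was not examined for this. Neither stretch holds a CpG.
Itgad: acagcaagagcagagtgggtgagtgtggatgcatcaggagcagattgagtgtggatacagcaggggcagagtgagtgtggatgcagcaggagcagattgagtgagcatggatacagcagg
Iqcm: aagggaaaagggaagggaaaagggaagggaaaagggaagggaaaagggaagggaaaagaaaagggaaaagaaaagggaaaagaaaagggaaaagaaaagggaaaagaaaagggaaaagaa
The next were in Hmcn1, a matrix protein (28.6 ± 2.41 against 21.9 ± 5.70 CPM, n = 12 and 10; 0.38 on the log2 scale, and over input 0.14 and not past the unadjusted threshold), and Olfr872, an olfactory receptor (86.3 ± 3.29 against 78.9 ± 5.14 CPM). The Olfr872 region was well covered, with 315 reads on average, and its log2 change was 0.13 (SE 0.04). Over input (limma) that change was −0.02.

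The difference of the ethanol effect between females and males was tested as an interaction. Of 3638 regions, 146 had an unadjusted p of at most 0.05 (79 with the more positive change in females, 67 with the more positive change in males), or 4.01%, against 4.07% of 21398 runs (2.2 and 1.86%), and none passed after adjustment. The smallest p outside chromosome 18 was in an intron of Gabrb1. It measured 32.4 ± 6.00 CPM with ethanol (n = 6, from 23.2 to 40.2) and 42.0 ± 3.21 with water (n = 5, from 38.5 to 45.7) in males. In females it measured 38.8 ± 5.59 with ethanol (from 30.3 to 43.6) and 30.9 ± 2.54 with water (from 26.9 to 33.8). Within each sex the groups overlapped, and the means differed in opposite directions (difference of log2 changes 0.69, SE 0.16, edgeR adjusted p = 0.9997). Over input (limma) the difference was 0.13, not past the unadjusted threshold. The second was the Erc2 region, which measured 30.5 ± 3.06 CPM with ethanol and 34.2 ± 3.42 with water in males, and 34.5 ± 2.10 and 27.5 ± 3.70 in females in this fit (difference of log2 changes 0.49, SE 0.14, edgeR adjusted p = 0.9997). Over input (limma) it was 0.40, past the unadjusted threshold.

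**Figure D5:**
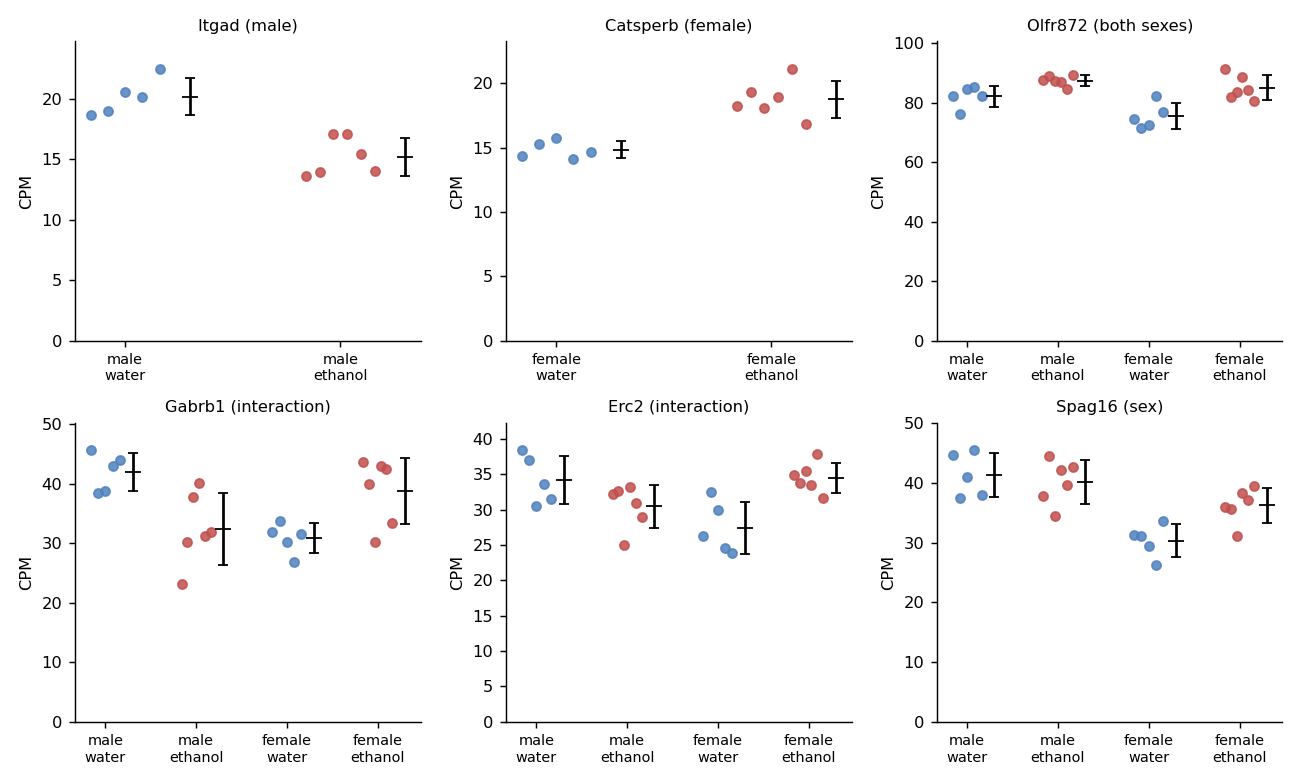
CPM of 6 named gene-body regions per pool (points; red ethanol, blue water), with mean ± SD beside each group and axes from 0; titles give the gene and the comparison in which the region was named. The Itgad and Catsperb panels have groups that do not overlap, and the Gabrb1 and Erc2 regions shift in opposite directions in the sexes.

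Between the sexes, 175 of 3638 regions had an unadjusted p of at most 0.05 (98 higher in females, 77 higher in males), or 4.81%, against 4.83% of all runs (2.3 and 2.53%), and none passed after adjustment. Without TMM scaling 136 of 189 were higher in females, beside 652 of 1047 among all runs. The regions of smallest p were in Spag16, in Ttn, the gene of titin, and in Gm28363. The Spag16 region was lower in females, at 33.5 ± 4.06 CPM (n = 11, from 26.3 to 39.4, median 33.6), than in males, at 40.7 ± 3.55 (n = 11, from 34.5 to 45.5, median 40.9), with overlapping ranges (log2 difference −0.28, SE 0.06, edgeR adjusted p = 0.946). Over input (limma) the difference was −0.26, past the unadjusted threshold. The Ttn region measured 52.6 ± 1.99 CPM in females and 45.2 ± 5.39 in males, and over input (limma) its log2 difference went from 0.22 to 0.12, not past the unadjusted threshold. The Gm28363 region was lower, at 54.8 ± 5.39 against 63.5 ± 4.78 CPM, but over input (limma) its difference was −0.05, not past the unadjusted threshold.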

How the data were processed

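H3K9me3 and H3K36me3 ChIP-seq with input was analysed in 22 pools. Per the labels and methods, the authors trimmed reads with cutadapt, aligned them with Bowtie2 2.4.1 to GRCm38/mm10, kept reads with a unique position outside blacklisted sequence, and called islands with SICER in 200 bp windows, library by library, with gaps of 400 bp for H3K9me3 and 600 bp for H3K36me3. The deposited lists give whole counts of ChIP and input reads per island, a fold (ratio) over scaled input, and a p-value with its FDR. Here, island reads were apportioned to runs by overlap and tested with edgeR 4.0.16 (quasi-likelihood, filterByExpr, TMM) on all runs with an island in every library compared, with Benjamini-Hochberg adjustment over all of them. DESeq2 1.42.0 and limma 3.58.1 gave alternatives. Library values were compared by exact permutation (6 against 5 pools) or 100000 resamples. Sequences were compared with blastn 2.17.0+. Tests across runs were also tested on simulated data. Named were, among others, the regions of smallest p in each comparison, of highest fold, of most exonic bases and of highest fold in each gene list, and the genes with most regions. The regions and the gene lists were chosen with earlier results of these data known. Chromosome 18 was counted but not named. Separate pools are biological replicates, and intervals of counts were not used, since PCR reads are not independent molecules. A marker gene of the tissue check is not reported here.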

Additional observations from a re-analysis of the deposited data

Results flagged for a closer look

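Of 56 groups of pools checked, 3 held a pool far from the others, and chance gives about 1 in 20. They were the share of reads in gene-body regions in male ethanol pools (lowest pool 13.26%), the median log2 fold over input in female water pools (lowest pool 0.15), and the Gm28363 region in male ethanol pools (lowest pool 50.82 CPM).

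The ethanol difference in cover of the regions by H3K36me3 was −21.1 percentage points in females relative to males (permutation of treatment within each sex, two-sided, p = 0.0146, not adjusted, no alternative run). The interaction also passed the unadjusted threshold for the Gabrb1 region (log2 0.69) and the Erc2 region (log2 0.49), both with an edgeR adjusted p = 0.9997.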

How the results depend on the processing

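No region passed an adjusted p of 0.05 under any alternative run. When regions were linked at 90% identity, the largest sequence family held 3304 regions, against 4461 at 80%. The number of gene-body regions fell to 4554 when all 22 libraries were required and to 3622 with islands at the FDR. With those islands fewer runs were tested, and regions with an unadjusted p of at most 0.05 numbered 40 of 1736 in males, 19 of 682 in females, and 14, 15 and 19 of 529 in both sexes, for the interaction and between sexes. Among all runs they numbered 328 of 11641, 132 of 4613, and 124, 116 and 172 of 3632. Over input (limma) they numbered 266 of 4869 in males and 218 of 3638 in both sexes, beside 1546 of 28556 and 1204 of 21398 among all runs, and the Olfr872 change reversed to −0.0209; the cause was not tested. Leaving out 1 pool at a time gave 128 to 192 in males, 144 to 210 in females, 125 to 171 in both, 125 to 167 for the interaction and 167 to 216 between sexes. The highest counts were 192 of 5368 without male ethanol replicate 1 (males) and 210 of 4019 without female water replicate 3 (females), beside 1200 of 31077 and 1192 of 23419 among all runs. In both sexes, for the interaction and between sexes they were 171 of 3767, 167 of 3650 and 216 of 3988. Among all runs the same fits gave 1079 of 22114, 1037 of 21460 and 1310 of 23359. The female H3K36me3 difference was −9.57 with regions of all 22 libraries (p = 0.0606), −2.15 with all listed islands (p = 0.680), and −11.9 to −7.51 without 1 pool (exact permutation p from 0.00952 to 0.0952). The male one was 7.72 to 16.5 without 1 pool, and passed 0.05 only without ethanol replicate 6 (16.5, exact permutation p = 0.0317).

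Replicate numbers did not pair the pools (correlations of same-numbered pools −0.0521 to 0.025). With the replicate block, counts were 126 of 4839 in males, 145 of 3987 in females, and 137, 137 and 163 of 3638 in both sexes, for the interaction and between sexes. Among all runs they were 766 of 28379, 810 of 23269, and 804, 808 and 1022 of 21398. The block of library values also drops ethanol replicate 6, which has no water pool of its number. The H3K36me3 difference was then −9.66 in females and 16.5 in males (exact permutation p = 0.125 and 0.0625, the second the smallest that 5 pairs can give), the same values as without that pool alone. The median region held 63 to 114 reads per library.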
